A study of Mus musculus with 10 samples.

Results

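The 9 genes described here encode the receptors and signalling proteins of the gp130 cytokine family: the receptor subunits Il6st, Lifr, Il6ra, Cntfr and Il11ra1, the kinases Jak1 and Jak2, the transcription factor Stat3 and the inhibitor Socs3. They were taken by symbol from a list of the pathway that leaves out Osmr, another partner of gp130 that is described further on, and all 9 were among the 23923 genes counted. None of the 9 differed detectably between mouse dorsal root ganglia in which Kif2a, a kinesin that shortens microtubules, was targeted in sensory neurons and ganglia in which it was not. Ganglia were taken at an age of 1 month from animals of genotype Kif2a fl/fl; Avil cre (5 samples, named Kif2a_cKO) and of genotype Kif2a fl/fl (5 samples, named control). Both groups therefore carry the floxed allele, and cre, driven by the sensory neuron gene Avil, is present in the first group alone, so cre and the loss of Kif2a cannot be told apart. Same-numbered samples of the groups carry consecutive identifiers in the labels, which state neither what a number stands for nor that each sample came from its own animal, so the spread behind each p-value may be technical.

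gp130, the product of Il6st, is the signal-transducing subunit shared by interleukin 6, leukemia inhibitory factor (LIF), ciliary neurotrophic factor (CNTF), interleukin 11 and related cytokines. Binding of a cytokine joins gp130 to itself or to the LIF receptor, JAK kinases bound to the receptor tails phosphorylate each other and the tails, and STAT3 docks there, is phosphorylated and enters the nucleus. Socs3, a target of STAT3, encodes an inhibitor that closes the loop by binding gp130 and JAK. In dorsal root ganglia the pathway is known for the response of sensory neurons to nerve injury and for the sensitization of nociceptors by interleukin 6.

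STAT3 dimers bind DNA at the palindrome TTCNNNGAA, where N is any base, and the RefSeq promoter windows (GRCm38.p6, 250 bases before to 50 after each start) were searched for it. Because the word is its own reverse complement, one search covers both strands. Of the 9 genes 1, Socs3, held a match in a window, against 9.55% of the 27025 genes in the table. The Socs3 window is shown because Socs3 is the member that held a match. It lies at chr11:117969317-117969616 on the minus strand, its start is 180 bases upstream of the start of the coding transcript in GENCODE, and the capitals mark the match, 154 to 146 bases before the RefSeq start.
Socs3: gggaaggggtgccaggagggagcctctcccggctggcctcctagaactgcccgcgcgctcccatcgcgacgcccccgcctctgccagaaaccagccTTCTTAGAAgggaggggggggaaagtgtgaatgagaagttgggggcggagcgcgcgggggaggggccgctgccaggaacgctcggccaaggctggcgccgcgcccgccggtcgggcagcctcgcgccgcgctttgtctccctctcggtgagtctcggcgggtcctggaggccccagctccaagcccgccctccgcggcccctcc

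Among STAT3 target genes 5 of the 27 with a window (18.5%) held a match, against 9.55% of the genes in the table. Socs3 is on that list too and is among the 5. The sites of 3 other genes described below are shown for comparison, with 10 bases on each side and the match in capitals: Icam1, an adhesion molecule, Gfap, the intermediate filament of astrocytes and reactive glia, and Il31ra, the interleukin 31 receptor of itch neurons. Icam1 lies at chr9:21015888-21015916 (plus strand), Gfap at chr11:102897184-102897212 (minus strand) and Il31ra at chr13:112580835-112580863 (minus strand). A match describes these letters and does not show that STAT3 binds there.
Icam1: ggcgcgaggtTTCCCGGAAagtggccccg
Gfap: atgggggtgcTTCCAGGAAgtcaggggca
Il31ra: cctgaagggtTTCCAGGAAattgtgataa

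Polyadenylated RNA was sequenced, and library totals ran from 17506135 to 34500320 counts in controls and from 28686616 to 73031457 in Kif2a_cKO. Levels are CPM, that is, counts per 1e6 counts of the library after TMM scaling. The targeted gene Kif2a measured 70.2 ± 8.61 CPM in controls and 69.0 ± 4.44 CPM in Kif2a_cKO (SD, n = 5 each). This total over every exon and cell type does not check the deletion, since the sources used here do not name the floxed exons. Controls 1, 3 and 5 stood apart in spinal cord transcripts: the mean log2 CPM of 16 tested oligodendrocyte, astrocyte and spinal neuron markers was 4.32, 6.11 and 4.62 there, 0.26 and 0.56 in controls 2 and 4, and from -0.04 to 3.16 in Kif2a_cKO. All 18 listed markers summed to 165 to 2464 CPM in controls and 120.2 to 395 CPM in Kif2a_cKO, and 3 of the 18 were at 0 in controls 2 and 4 and Kif2a_cKO 2. In bulk tissue, fewer cells of a type and less RNA per cell cannot be told apart.

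Il6st, Lifr, Jak1 and Stat3 each lay above at least 96.3% of the tested genes in mean CPM, and Il6ra above 35.1%. Counts of the 9 ran from 97 for Il6ra in control 4 to 29279 for Jak1 in Kif2a_cKO 4, so counting error at the lowest count of each gene was at most 10.2%, and at most 2.36% for Il6st, Lifr, Cntfr, Jak1 and Stat3. Per kilobase of exon, the scale on which genes can be compared with each other, Jak1 had the highest level in controls (74.9 ± 11.3 CPM per kb, SD, n = 5), with no control below 58.0. Cntfr (47.5 ± 5.35 CPM per kb) and Stat3 (45.6 ± 8.28 CPM per kb) came next, and their ranges overlapped. Il6st (24.6 ± 3.28 CPM per kb) and Lifr (21.4 ± 2.30 CPM per kb), the signalling subunits that pair with each other, followed, and their ranges overlapped too. Jak2 (5.31 ± 0.353 CPM per kb), Il11ra1 (4.96 ± 1.16 CPM per kb) and Socs3 (3.88 ± 0.760 CPM per kb) formed a lower group in which each overlapped the next. Il6ra had the lowest level per length, 0.772 ± 0.126 CPM per kb in controls and 0.719 ± 0.0776 CPM per kb in Kif2a_cKO. Of the ligand-binding subunits, that of CNTF was thus the highest per length and that of interleukin 6 the lowest in these ganglia.

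**Figure D1:**
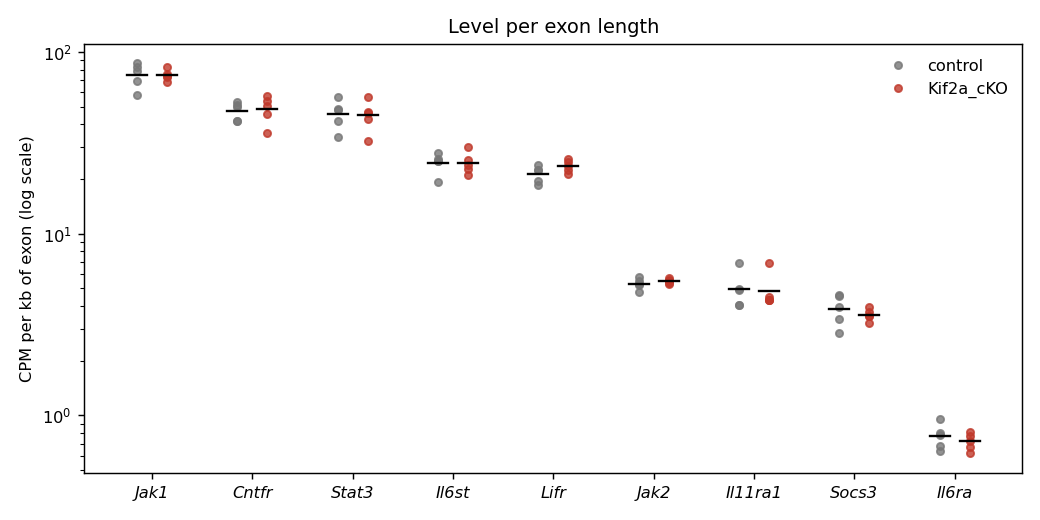
Level per kilobase of exon (CPM per kb, log axis) of the 9 genes, ordered by their mean in controls, with grey points for the 5 control libraries, red points for the 5 Kif2a_cKO libraries and a black line for each group mean. Jak1 lies highest at 74.9 and Il6ra lowest at 0.772 in controls, and the 2 groups overlap in each gene.

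None of the 9 genes was called by edgeR at an adjusted p under 0.05, none had an unadjusted p under 0.05, and the groups overlapped in all 9. Over the 17439 genes tested, 0.0172% were called, 6.98% had an unadjusted p under 0.05 (2.97% higher and 4.01% lower in Kif2a_cKO) and 1.17% had groups that did not overlap. DESeq2 and limma-voom also called 0 of the 9, against 0.184% and 0.0229% of all genes. The median log2 fold change (Kif2a_cKO over control) of the 9 was -0.01 and the median size without regard to sign 0.03, against 0.01 and 0.10 over all tested genes. All 9 of the 95% intervals included 0, and together they spanned -24.6% to 27.0%, both ends being those of Il11ra1. In the authors' deposited table the 9 log2 fold changes ran from -0.12 for Il6ra and Socs3 to 0.13 for Lifr, with false discovery rates of 0.789 or more and none past the authors' thresholds.

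**Figure D2:**
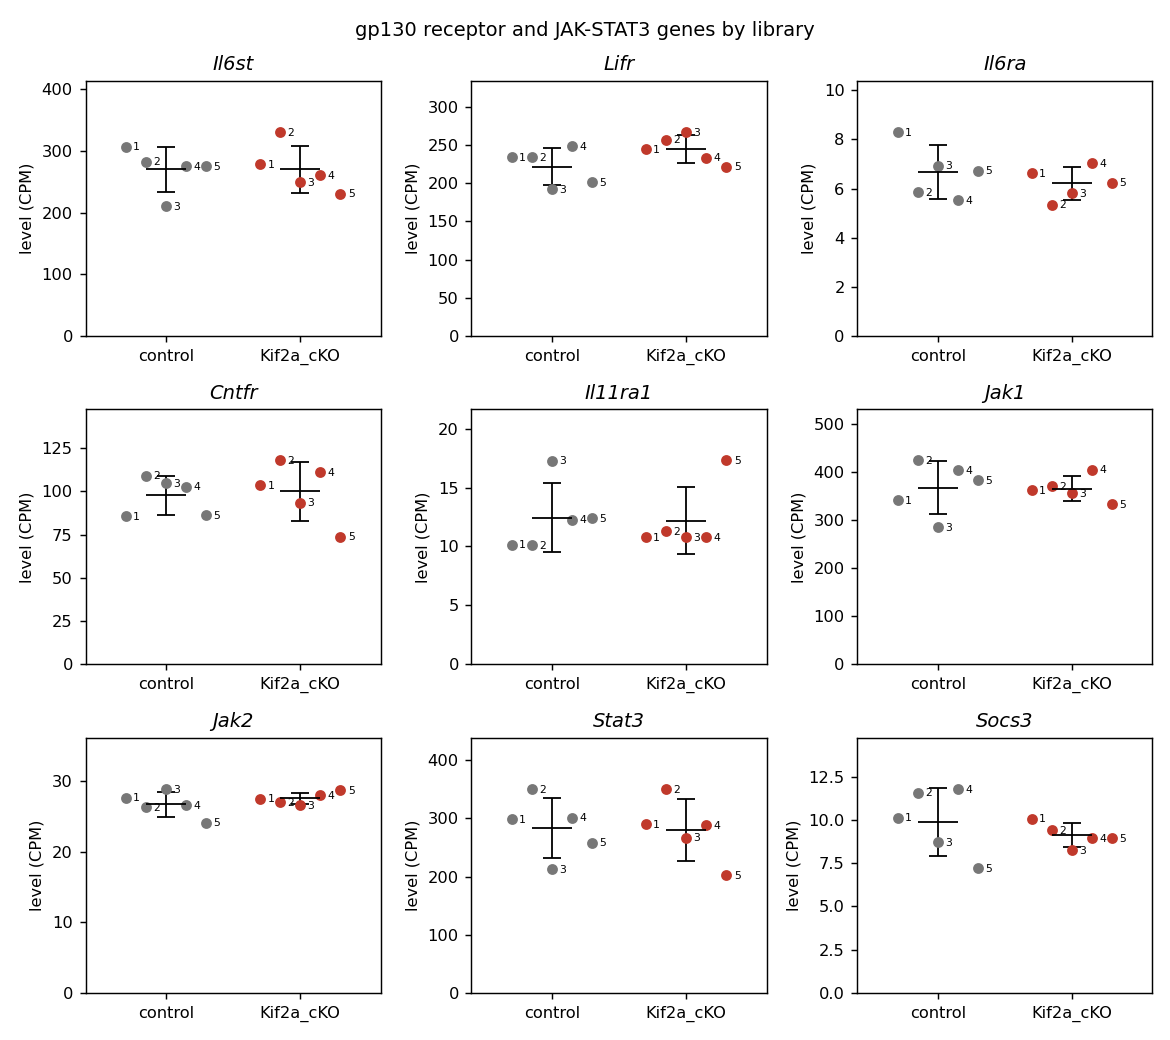
Level (CPM, linear axis from 0) of each of the 9 genes in the 5 control and 5 Kif2a_cKO libraries; numbers are replicate numbers, the black line is the group mean and the bars are 1 SD. The groups overlap in every panel, and Il11ra1 shows control 3 and Kif2a_cKO 5 above the other libraries, at 17.3 CPM each.

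Il6st, on chromosome 13 from 112464070 to 112510086 (plus strand, GENCODE M21 on GRCm38, as for the other positions), had the same mean level in both groups. Its levels in controls 1 to 5 were 307, 282, 209.9, 275 and 276 CPM, and in Kif2a_cKO 1 to 5 they were 279, 330.4, 249.5, 260.4 and 231 CPM. Control 3 was the lowest of the 10 libraries and Kif2a_cKO 2 the highest, 1.57 times apart, so the spread lay within the groups. The means were 269.9 ± 35.9 CPM in controls and 269.9 ± 38.0 CPM in Kif2a_cKO (SD, n = 5 each), a log2 fold change of 0.00018 (SE 0.115, edgeR adjusted p = 0.9998) with a 95% interval from -15.8% to 18.8%.

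Lifr, the LIF receptor that pairs with gp130 for LIF and CNTF (chromosome 15 from 7090614 to 7197489, plus strand), had the largest fold change of the 9. Controls 1 to 5 had 234, 234, 192, 248 and 201 CPM, and Kif2a_cKO 1 to 5 had 244, 257, 267, 233 and 221 CPM. Kif2a_cKO 3 and 2 lay above all controls, and the other 3 lay within the control range. Its log2 fold change was 0.14 (edgeR SE 0.0875, adjusted p = 0.746), with a 95% interval from -3.23% to 25.8%. Without control replicate 3, the control with the most spinal cord transcripts, it was 0.08, and without control replicates 1, 3 and 5 together it was 0.02. Leaving out control replicate 1 alone gave 0.16, and leaving out control replicate 4 alone gave 0.18. With spinal cord marker level as a covariate the log2 fold change of Lifr was 0.09.

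The 3 ligand-binding subunits differed in how they varied. Il6ra, which binds interleukin 6 (chromosome 3 from 89864059 to 89913196, minus strand), had 8.30, 5.84, 6.93, 5.53 and 6.73 CPM in controls 1 to 5 and 6.64, 5.34, 5.81, 7.04 and 6.24 CPM in Kif2a_cKO 1 to 5. Control 1 was the highest and Kif2a_cKO 2 the lowest. The groups differed by a log2 fold change of -0.10 (SE 0.132, edgeR adjusted p = 0.919), which was -0.01 without control replicate 1 and -0.17 without control replicate 4. Its annotated exons share 242 bases with the antisense gene Gm42809, and reads of the pair cannot be told apart without strand.

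Cntfr, which binds CNTF and is anchored to the membrane without a cytoplasmic tail, is on chromosome 4 from 41657498 to 41697089 (minus strand). Controls 1 to 5 had 85.6, 109, 105, 103 and 86.2 CPM, and Kif2a_cKO 1 to 5 had 104, 118, 93.6, 111 and 73.8 CPM. The highest and the lowest library both belonged to Kif2a_cKO, replicates 2 and 5. Its log2 fold change was 0.03 (edgeR SE 0.120, adjusted p = 0.981), with an interval from -14.5% to 22.7%.

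Il11ra1, which binds interleukin 11, lies beside Cntfr on chromosome 4, from 41699989 to 41769474 (plus strand). Controls 1 to 5 had 10.2, 10.1, 17.3, 12.3 and 12.4 CPM, and Kif2a_cKO 1 to 5 had 10.8, 11.3, 10.8, 10.8 and 17.3 CPM. In each group 1 library stood above the rest, control 3 and Kif2a_cKO 5, while the other 4 Kif2a_cKO libraries lay close together. Its log2 fold change was -0.03 (edgeR SE 0.173, adjusted p = 0.990). It was -0.20 without Kif2a_cKO replicate 5 and 0.10 without control replicate 3. Il11ra2, a near-identical copy on the same chromosome, was not among the genes counted, so how reads shared with it were counted is uncertain.

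**Figure D3:**
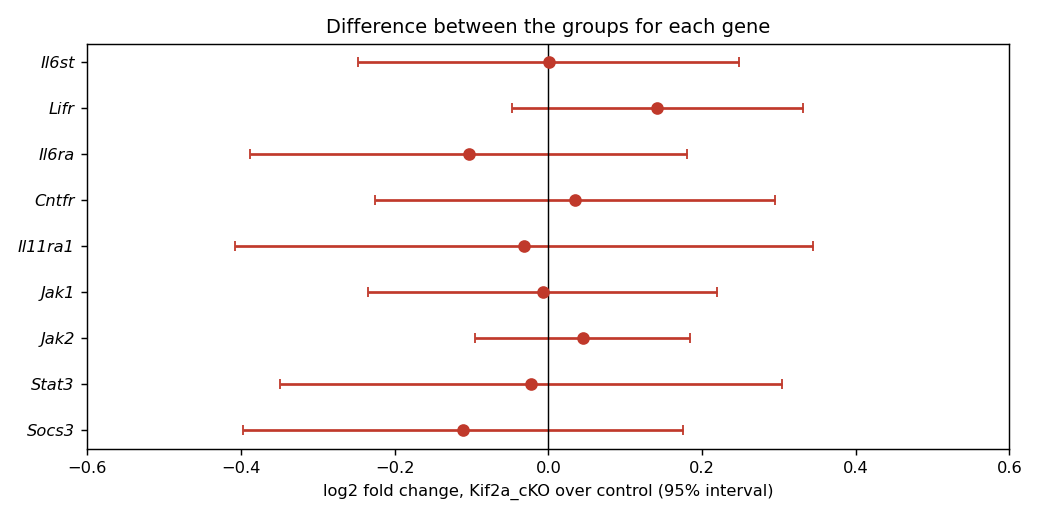
Log2 fold change (Kif2a_cKO over control, points) of each of the 9 genes with its 95% interval from edgeR (bars). Every interval includes 0, that of Jak2 is the narrowest and that of Il11ra1 the widest.

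The kinases were alike in showing small fold changes. Jak1 (chromosome 4 from 101152367 to 101265282, minus strand), a kinase used by gp130, had 341, 424, 285, 404 and 383 CPM in controls 1 to 5 and 363, 370.1, 356, 405 and 333 CPM in Kif2a_cKO 1 to 5. The controls spread over a wider range than Kif2a_cKO, which lay wholly within it. Its log2 fold change was -0.01 (edgeR SE 0.105, adjusted p = 0.997) with an interval from -15.0% to 16.5%. Jak2 (chromosome 19 from 29251828 to 29313080, plus strand), which serves gp130 and many other cytokine receptors, had 27.7, 26.3, 28.9, 26.6 and 24.1 CPM in controls 1 to 5 and 27.5, 27.0, 26.6, 28.0 and 28.7 CPM in Kif2a_cKO 1 to 5. It was the steadiest of the 9, with 1.20-fold between the highest and the lowest library. The interval of its change, from -6.38% to 13.6%, was the narrowest (log2 fold change 0.04, SE 0.0646, edgeR adjusted p = 0.934).

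Stat3 (chromosome 11 from 100885098 to 100939540, minus strand) had 298, 349.9, 212, 302 and 258 CPM in controls 1 to 5 and 289.8, 351, 267, 288 and 202 CPM in Kif2a_cKO 1 to 5. Replicate 2 was the highest in both groups, control 3 and Kif2a_cKO 5 were the lowest, and the range over all 10 libraries was 1.74-fold, the widest of the 9. Between the groups the log2 fold change was -0.02 (SE 0.151, in edgeR adjusted p = 0.993), with an interval from -21.5% to 23.5%. Of its annotated exons 72 bases overlap Stat5a on the other strand, a gene at 7.00 ± 0.959 CPM in controls (SD, n = 5).

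Socs3 (chromosome 11 from 117966079 to 117970047, minus strand) had 10.1, 11.6, 8.70, 11.8 and 7.23 CPM in controls 1 to 5 and 10.1, 9.43, 8.24, 8.94 and 8.97 CPM in Kif2a_cKO 1 to 5. The 5 Kif2a_cKO libraries lay within the control range, and both its highest and its lowest library were controls. Its log2 fold change was -0.11 (edgeR SE 0.133, adjusted p = 0.911) with an interval from -24.1% to 12.9%. Against controls 2 and 4 alone, the controls low in spinal cord transcripts, it was -0.36 (unadjusted p = 0.0143, edgeR adjusted p = 0.991), and it was -0.22 without control replicate 5. Without control replicate 2 or 4, the highest controls, it was -0.06 and -0.05.

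Ratios of 2 counts within a library do not depend on how libraries are scaled. Lifr counts per Il6st count were 0.762, 0.828, 0.914, 0.902 and 0.730 in controls 1 to 5 and 0.877, 0.778, 1.07, 0.896 and 0.960 in Kif2a_cKO 1 to 5. The groups overlapped, and the log2 ratio differed by 0.14 (two-sided exact permutation test, p = 0.190, or 0.929 adjusted over the 5 ratios computed). Socs3 counts per Stat3 count, the inhibitor relative to its activator, were 0.0350 ± 0.00516 in controls and 0.0336 ± 0.00665 in Kif2a_cKO (SD, n = 5 each; exact permutation p = 0.659, 0.929 adjusted). The ratios of Il6ra, Cntfr and Il11ra1 to Il6st gave exact permutation p values of 0.611, 0.929 and 0.889. These ratios were chosen after the values were seen.

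The variation between libraries of one group took different forms in different members. Il6st, Lifr and Jak1 were lowest in control 3, Stat3 and Cntfr in Kif2a_cKO 5, and Il11ra1 was highest in those same 2 libraries. Both libraries had the lowest mean log2 CPM of 15 sensory neuron markers, 9.39 in control 3 and 9.71 in Kif2a_cKO 5, against 9.80 to 10.1 in the other 8. Control 3 and Kif2a_cKO 5 also had the highest mean log2 CPM of leukocyte markers (4.02 and 3.90, against 3.18 to 3.59 elsewhere) and of fibroblast and perineurial markers (7.52 and 7.56, against 7.03 to 7.31). The same held for endothelial and mural markers (4.653 and 4.657, against 3.955 to 4.62) and for blood markers (5.34 and 4.73, against 1.81 to 4.38). The summed leukocyte markers, 14 of 14 counted, ran from 171 to 318 CPM in controls and from 195 to 299 CPM in Kif2a_cKO, and the 9 fibroblast and perineurial markers from 2215 to 2999 and from 2336 to 3218 CPM. The part of these markers in the members' values was not tested. Over the 9 fibroblast and perineurial markers the median log2 fold change was -0.02, and over the sensory neuron markers it was 0.15. Of all 17439 tested genes 9090 were above 0 and 8349 below 0, and of the 15 sensory neuron markers 14 were above 0. edgeR called 0 of those 15, and DESeq2 and limma-voom each called 1, Avil itself, whose promoter drives cre (log2 fold change -0.82, adjusted p = 0.000195 and 0.0393; edgeR adjusted p = 0.351). Markers of myelinating Schwann cells were below 0 in 14 of 14 cases, with a median log2 fold change of -0.32, and 8 of the 14 had an unadjusted p under 0.05 in edgeR, all lower in Kif2a_cKO (background 4.01%). edgeR called 0 of these and DESeq2 called 1, Fa2h, an enzyme of myelin lipid synthesis (adjusted p = 0.0129). Their part in the members' values was not tested either.

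**Figure D4:**
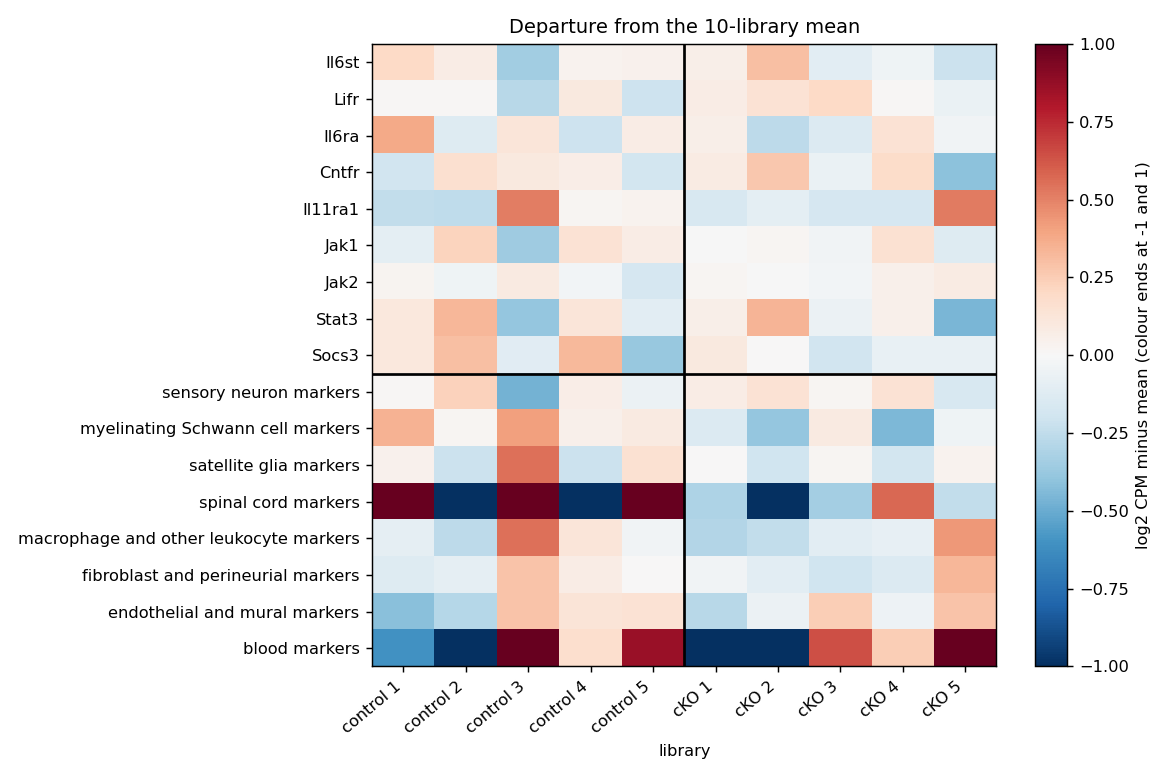
Departure of each library (columns) from the mean of the 10 libraries in log2 CPM, for the 9 genes (upper rows) and for the mean of each cell type marker list (lower rows); red is above and blue below the mean, and the colour ends at 1 in each direction. Control 3 and Kif2a_cKO 5 are red for Il11ra1 and for leukocyte, fibroblast, endothelial and blood markers. They are blue for Stat3, Il6st and sensory neuron markers.

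Genes with the most similar course over the 10 libraries were found by the root-mean-square distance between levels scaled to mean 0 and SD 1, among 14990 genes of at least 1 CPM. Nearest to Il6st were Cd44, a hyaluronan receptor (distance 0.235), and Bnc2, a zinc finger protein (0.333), where the median gene lay at 1.34. Nearest to Stat3 were Bcam, a laminin receptor (0.117), Isl2, a LIM homeodomain transcription factor (0.121), and Myh9, a nonmuscle myosin (0.135). For Socs3 the nearest genes were farther away: Wdr62, a spindle pole protein (0.364), Fam126a (0.374) and Coq4, a protein of coenzyme Q synthesis (0.411). Among the members, Stat3 was the closest to Il6st (0.499) and Il11ra1 the farthest from it (1.78). Among all genes compared, Stat3 was only at rank 128 from Il6st, and Il6st at rank 1065 from Stat3. These distances are a description and share the libraries' cell composition.

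The cytokines that use these receptors were scarce. Of 11 on the list 10 were counted and 5 had enough counts to be tested, none of which was called or had an unadjusted p under 0.05 in edgeR. Il6, Cntf, Il11, Osm and Il27 were too low to test: Il6 had from 1 to 18 counts per library, and Osm from 0 to 8. Ctf1, encoding cardiotrophin 1, had 3.76 ± 0.585 CPM in controls and 3.10 ± 0.681 CPM in Kif2a_cKO (SD, n = 5 each; log2 fold change -0.29, SE 0.177, edgeR adjusted p = 0.747).

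Among other receptors of the family, 3 of 6 tested had an unadjusted p under 0.05, all lower in Kif2a_cKO (background 4.01% of all genes). None was called by edgeR. Osmr, the oncostatin M receptor that pairs with gp130, had 50.4, 60.9, 45.8, 57.7 and 58.2 CPM in controls 1 to 5 and 40.7, 43.9, 45.3, 45.0 and 42.4 CPM in Kif2a_cKO 1 to 5. Its groups did not overlap, although control 3 lay just above the highest Kif2a_cKO library (log2 fold change -0.33, SE 0.0808, edgeR adjusted p = 0.583, DESeq2 adjusted p = 0.0648). Il31ra, the partner of Osmr in the interleukin 31 receptor, had 19.7 ± 6.71 CPM in controls and 11.7 ± 4.44 CPM in Kif2a_cKO (log2 fold change -0.74, SE 0.295, edgeR adjusted p = 0.703). Il12rb1, a subunit of the interleukin 12 receptor, had 0.929 ± 0.643 and 0.373 ± 0.185 CPM (log2 fold change -1.32, SE 0.526, edgeR adjusted p = 0.703), and its 3 highest libraries were controls 1, 3 and 5.

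Of the other JAK kinases and STATs, 8 of 8 were tested, and none was called or had an unadjusted p under 0.05. Those with the highest mean CPM were Stat6, which serves interleukin 4 receptors, at 102 ± 12.5 CPM in controls and 114 ± 10.3 CPM in Kif2a_cKO (log2 fold change 0.15, SE 0.0944), and Stat2, of the interferon pathway, at 57.4 ± 9.26 and 64.5 ± 8.01 CPM (log2 fold change 0.17, SE 0.113). Of 15 other inhibitors all were tested and 0 were called. An unadjusted p under 0.05 in edgeR was found for 2, each lower in Kif2a_cKO (background 4.01% of all genes). These were Ptpn1, a tyrosine phosphatase that acts on JAK kinases (45.9 ± 3.94 CPM in controls, 39.4 ± 4.12 CPM in Kif2a_cKO, log2 fold change -0.22, SE 0.0854), and Pias2, a SUMO ligase of the PIAS family (24.6 ± 3.23 and 21.1 ± 1.71 CPM, log2 fold change -0.22, SE 0.0952), each with an edgeR adjusted p of 0.703. The inhibitors with the highest mean CPM, not corrected for length, were Ptpn11, a phosphatase that binds the same gp130 site as Socs3 (141 ± 10.6 and 129 ± 7.76 CPM, log2 fold change -0.13, SE 0.0724), and Socs7 (75.9 ± 8.25 and 74.3 ± 11.1 CPM, log2 fold change -0.03, SE 0.108).

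Known target genes of STAT3 were counted in 31 of 32 cases, and none of the 30 tested was called. Their median log2 fold change was -0.05, with 22 below 0, against 0.01 over all tested genes. Over all tested genes 8349 of 17439 were below 0. The target list also holds Jak1, Stat3, Socs3 and Osmr, which were counted above in other lists, so the lists are not separate. At an unadjusted p under 0.05 in edgeR there were 3 targets, 1 higher and 2 lower in Kif2a_cKO (background 2.97% and 4.01% of all genes). These were Osmr, Fos, an immediate early transcription factor (5.91 ± 1.14 CPM in controls, 4.61 ± 0.576 CPM in Kif2a_cKO, log2 fold change -0.36, SE 0.152), and Gal, the neuropeptide galanin (20.2 ± 5.91 and 27.6 ± 6.08 CPM, log2 fold change 0.46, SE 0.207), the last 2 with an edgeR adjusted p of 0.703. By mean CPM over all libraries, which is not corrected for length, the highest of the list were Jak1 and Stat3 themselves. Per kilobase of exon Serpina3n, a secreted serpin named here after its values were seen, was above both, at 121 CPM per kb in controls and 138 CPM per kb in Kif2a_cKO. Icam1, whose site is shown above, had 2.39 ± 0.647 CPM in controls and 2.01 ± 0.536 CPM in Kif2a_cKO (log2 fold change -0.25, SE 0.226). Gfap had 82.6, 5.95, 276, 9.07 and 77.3 CPM in controls 1 to 5 and 12.6, 4.44, 31.6, 27.9 and 41.1 CPM in Kif2a_cKO 1 to 5 (log2 fold change -1.94, SE 1.04, edgeR adjusted p = 0.727). Its 3 highest libraries were controls 1, 3 and 5, those with the most spinal cord transcripts. Icam1 and Gfap were named for their promoter sites, after their values were seen.

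**Figure D5:**
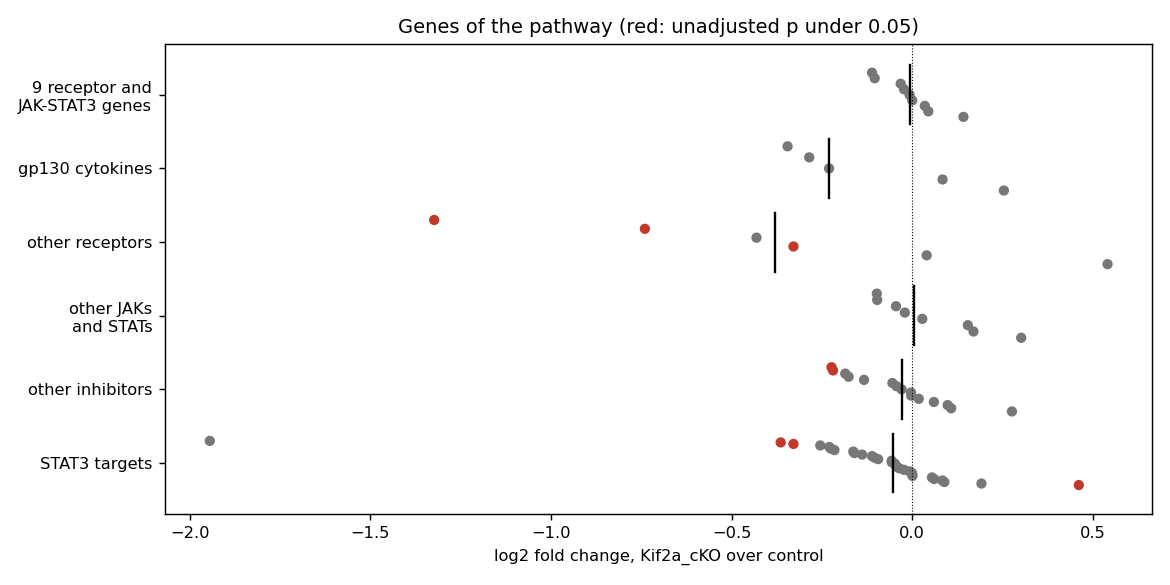
Log2 fold change (Kif2a_cKO over control) of each tested gene in 6 lists of the pathway; a point is a gene, a red point has an unadjusted p under 0.05 in edgeR, and the black line is the list's median. The 9 receptor and JAK-STAT3 genes lie between -0.11 and 0.14. Red points occur among the other receptors, inhibitors and STAT3 targets, and none was called after adjustment. Jak1, Stat3, Socs3 and Osmr are drawn among the STAT3 targets as well as in their own list.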

How the data were processed

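The submitters' processing notes name the tools cutadapt, STAR and DESeq2 and the build mm10. Versions, read counter, annotation and strandedness were not stated there. Raw counts per gene symbol were deposited by the authors, and they alone were tested. The deposited table also holds a normalized signal (counts over a size factor per library), regularized log2 values, and the log2 fold change, p-value and false discovery rate of the authors' own comparison. Counts were tested with edgeR 4.0.16 in R 4.3.3: filterByExpr (minimum count 10, total 15) kept 17439 of 23923 genes, libraries were scaled by TMM (factors 0.957 to 1.05), and a robust quasi-likelihood F test on group was adjusted by Benjamini-Hochberg over all tested genes, with calls at an adjusted p under 0.05. Log2 CPM used a prior count of 2. Standard errors are the fold change over the square root of F, and 95% intervals use the moderated degrees of freedom. Replicates differed by more than sampling noise (lowest chi-square 9.50 per gene), so no libraries were merged. Precision comes from the spread between libraries. Exon lengths and positions are from GENCODE M21, and promoters from RefSeq, where all 9 members matched.

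Alternatives were DESeq2 1.42.0, limma-voom (limma 3.58.1) with sample quality weights, other scalings and filters, the replicate number as a block, spinal cord marker level as a covariate, and leaving out libraries. The tools were also run on simulated counts, with results not reported here, so the size of change that could be missed is not stated. Members and lists were chosen with earlier results of these data known. From each other list the text names called genes, then up to 3 with the lowest unadjusted p under 0.05, then the 2 with the highest mean CPM. Single-gene results of some genes under this rule are not reported here.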

Additional observations from a re-analysis of the deposited data

Results flagged for a closer look

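Of the 18 groups of 5 libraries (9 genes in 2 groups), 1 held a library far from the others: Il11ra1 in Kif2a_cKO 5, at 17.3 CPM where the other 4 had 10.8 to 11.3 CPM. Chance alone would mark about 1 in 20 such groups. The fold change of Il11ra1 was uncalled with and without that library.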

How the results depend on the processing

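None of the 9 genes was called in any of the 19 alternative analyses, or at an adjusted p under 0.1, and the lowest adjusted p in any was 0.627. The number with an unadjusted p under 0.05 was 0 in each, except 1 (Socs3) without control replicates 1, 3 and 5 together. Over all genes, edgeR called 3, and 0 to 3 with each library left out; DESeq2 called 32. edgeR called 0 with at least 1 CPM in 5 libraries (1011 at an unadjusted p under 0.05), 0 with the replicate block (1499) and 0 without control replicates 1, 3 and 5 together (604).

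The sign of a fold change turned in 33 of 171 cases, none called. Lifr and Socs3 kept their sign throughout. The log2 fold change of Il6st was -0.0080 with DESeq2 and with median-of-ratios scaling, -0.036 with library totals alone, -0.018 with limma-voom, -0.0092 with no filter, -0.015 with the stricter filter, -0.066 with the spinal cord covariate and -0.047 without control replicates 1, 3 and 5. With library totals alone, the covariate and those 3 controls left out, Cntfr had -0.00064, -0.0095 and -0.084. Il11ra1 had 0.063 with the covariate and 0.12 without those controls, where Il6ra had 0.13. Jak1, Stat3 and Socs3 kept their sign there. They had -0.18, -0.22 and -0.36 without those controls, and -0.064, -0.13 and -0.19 with the covariate. With each library left out in turn, log2 fold changes ran from -0.095 to 0.050 for Il6st, -0.029 to 0.12 for Cntfr, -0.20 to 0.099 for Il11ra1, -0.10 to 0.036 for Jak1, -0.0029 to 0.058 for Jak2, -0.13 to 0.063 for Stat3, 0.078 to 0.18 for Lifr, -0.17 to -0.012 for Il6ra and -0.22 to -0.048 for Socs3. The causes were not tested.

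Under the replicate block Jak1 had 0.0035, and no call among the 9 changed. To look for pairing, each gene's group mean of log2 CPM was subtracted from its levels. The remaining deviations of same-numbered libraries had correlations of 0.177, 0.367, 0.140, -0.147 and 0.252 for replicates 1 to 5. By these deviations, 3 of 5 controls were closest to their own number. This is a hint of pairing from the data in some of the numbers but not in all; the labels do not say what a number stands for, and the libraries were not treated as pairs.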
